A study of Mus musculus with 6 samples.

Results

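The Hox genes analysed here were the rows of a gene-level expression table whose gene name contained Hoxa, Hoxb, Hoxc or Hoxd followed only by digits. Of 24469 rows, 30 met this rule, and they named 33 of the 39 mouse Hox genes; Hoxb1, Hoxd1, Hoxd10, Hoxd11, Hoxd12 and Hoxd13 were not analysed here. A row was counted as expressed when the mean of the 6 libraries was at least 1 FPKM (fragments scaled by exon length and by the total of mapped fragments, so that levels of different genes can be compared). The 16 Hox rows, holding 19 genes, that passed were selected on this mean level, which is therefore given as a description. The rule on names used no comparison between groups.

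Poly(A) RNA was sequenced from a conditionally immortalized mouse podocyte cell line, differentiated for 10 days at 37 °C without interferon gamma, then kept for 12 h without serum. All 3 groups were then held for 12 h in high glucose (25 mM), and each had 2 libraries. The HG group received no pretreatment. The other groups were pretreated for 1 h with 100 ng/mL of recombinant protein: wild-type FGF1 (rFGF1WT), a fibroblast growth factor, or the mutant rFGF1ΔHBS, whose mitogenic activity is reduced. No normal-glucose library was analysed here, so every difference below is one between cells in high glucose. Nothing in the labels says that the libraries came from separate cultures, and the p-values measure the spread between these libraries, which may be technical.

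Hox genes encode homeodomain transcription factors that give cells their position along the head-to-tail axis. They lie in 4 clusters, and paralog number follows the order along the chromosome, with low numbers at the 3′ end used anteriorly and high numbers at the 5′ end used posteriorly. Adult cells commonly keep part of the Hox pattern of the tissue they came from, held by Trithorax and Polycomb chromatin complexes, and Hox proteins bind DNA with TALE cofactors of the Pbx and Meis families. In the embryonic kidney the Hox11 paralogs (Hoxa11, Hoxc11 and Hoxd11) are required for the ureteric bud to form and branch.

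Summed FPKM was between 179590 and 185170 per library, and Hox rows made up 0.0506 to 0.0582% of it. Of 8 genes that respond to FGF signalling, 6 were called higher with rFGF1WT against HG (Ccnd1, Etv4, Etv5, Phlda1, Spry2 and Spry4), at an adjusted p under 0.05. All of these but Spry2 were also called with rFGF1ΔHBS. Spry2 had a mean of 3.56 FPKM in HG and 6.48 FPKM with rFGF1ΔHBS (limma, adjusted p = 0.0648). Dusp6 and Spred1 were not called, though their means were higher with both proteins. Of all rows tested 6.19 and 6.26% were called against HG. Between the proteins 0 of these genes were called, where 0.549% of all rows were. Etv4, Etv5 and Spry4 had HG means of 0.0683, 0.532 and 0.0579 FPKM, and reached the limit of 1 FPKM only through the groups given FGF1. Among 14 podocyte markers 5 passed the limit, Actn4, Cd2ap, Podxl and Synpo among them, Actn4 at a mean of 96.6 FPKM and Cd2ap at 60.7 FPKM, while the defining markers Wt1 and Lmx1b were at 0.0376 and 0.00105 FPKM and Nphs1 at 0.781 FPKM. Of 16 markers of other kidney cells 4 passed it, including the pericyte marker Pdgfrb at 28.6 FPKM and the proximal tubule receptor Lrp2 at 24.5 FPKM, and a row shared by the macrophage-associated Cd68 and the translation factor Eif4a1 (61.2 FPKM), which cannot be divided between them, rose with both proteins; 0 markers of either list differed between the proteins. Whether cell composition had a part in any Hox result was not tested, and in bulk libraries fewer cells of a type and less RNA per cell cannot be told apart.

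The podocyte line used a broad part of the HoxA, HoxB and HoxC clusters and little of HoxD. The expressed rows were 6 of 11 in HoxA, 5 of 7 in HoxB, 5 of 8 in HoxC and 0 of 4 in HoxD. In the GRCm38 annotation the clusters lie on chromosomes 6, 11, 15 and 2, and HoxA is transcribed from the minus strand while the others are on the plus strand. Summed HoxD signal was 1.90 to 2.80 FPKM per library, against 14.1 to 28.1 FPKM for HoxA, 18.1 to 49.7 FPKM for HoxB and 22.9 to 41.8 FPKM for HoxC. HoxD was therefore the lowest cluster in each of the 6 libraries, with no overlap with another cluster, although only 4 of its 9 genes had a row.

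**Figure D1:**
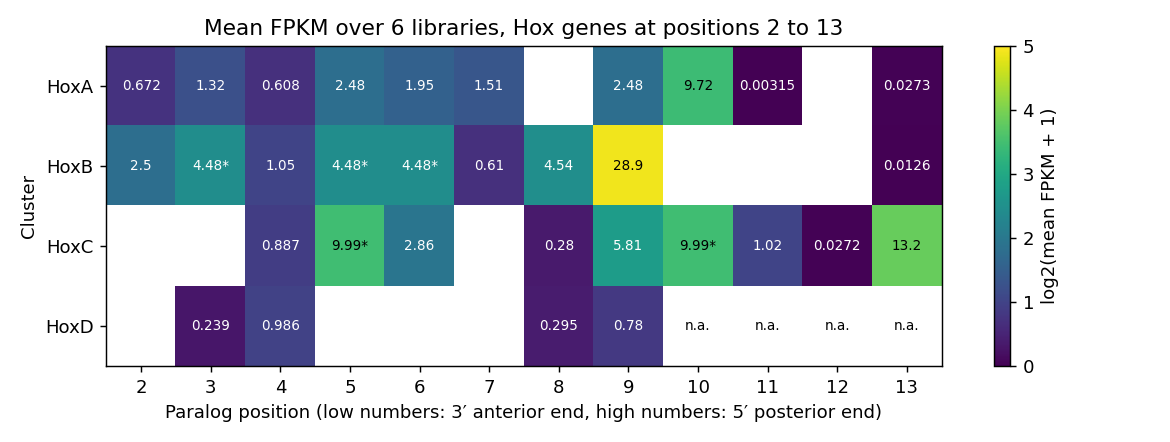
Mean FPKM over the 6 libraries by cluster (vertical axis) and paralog position from 2 to 13 (horizontal axis), with colour on a log2(FPKM + 1) scale. Blank cells have no mouse gene, n.a. marks genes not analysed here, and an asterisk marks a row shared by several genes; Hoxb9 at 28.9 FPKM was the highest row and HoxD held none of at least 1 FPKM.

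Expression was not graded evenly along the clusters, the 2 rows shared by several genes being left out here. Rows of the anterior genes (positions 1 to 3) had a median level of 0.672 FPKM, and the highest was Hoxb2 at 2.50 FPKM. Rows of central genes (positions 4 to 8) had a median of 1.02 FPKM and a highest value of 4.54 FPKM, that of Hoxb8. Rows of posterior genes (positions 9 to 13) had the same median of 1.02 FPKM but ran from 0.00315 FPKM for Hoxa11 to 28.9 FPKM for Hoxb9. Posterior rows between these ends included Hoxa9 at 2.48 FPKM and Hoxd9 at 0.780 FPKM.

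The highest Hox row was Hoxb9, a gene of thoracic patterning. It stood at 33.4 and 5.55 FPKM in the HG libraries, 34.8 and 34.4 FPKM with rFGF1WT, and 33.0 and 32.1 FPKM with rFGF1ΔHBS. In 5 libraries Hoxb9 was nearly constant, and HG library 2 alone was low. Hoxc13, which is known for its role in hair follicles, followed at 9.96 and 13.1 FPKM in HG, 14.8 and 11.2 FPKM with rFGF1WT, and 14.5 and 15.9 FPKM with rFGF1ΔHBS. Its HG and rFGF1ΔHBS values did not overlap, but the rFGF1WT values overlapped both.

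The Hox10 paralogs, which pattern the lumbar region, came next. The row shared by Hoxc10 and Hoxc5 had 1.32 and 12.9 FPKM in HG, 10.8 and 11.9 FPKM with rFGF1WT, and 12.0 and 11.02 FPKM with rFGF1ΔHBS, so here HG library 1 was the low one. A value of that row cannot be divided between its genes. Hoxa10 had 11.9 and 12.7 FPKM in HG, 9.82 and 10.96 FPKM with rFGF1WT, and 3.54 and 9.41 FPKM with rFGF1ΔHBS. The 3 groups of Hoxa10 did not overlap, with HG highest and rFGF1ΔHBS lowest, but the rFGF1ΔHBS libraries lay 2.66-fold apart.

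Hoxc9, a thoracic paralog of Hoxb9, had 6.65 and 9.28 FPKM in HG, 4.70 and 4.997 FPKM with rFGF1WT, and 3.86 and 5.38 FPKM with rFGF1ΔHBS. Both HG libraries were above the other 4. Hoxa9, a regulator of blood progenitors, had 2.03 and 5.91 FPKM in HG, 1.58 and 1.71 FPKM with rFGF1WT, and 1.52 and 2.12 FPKM with rFGF1ΔHBS. The high Hoxa9 value came from HG library 2 alone.

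In the central HoxB cluster, Hoxb8 had 4.78 and 3.36 FPKM in HG, 3.72 and 4.52 FPKM with rFGF1WT, and 6.42 and 4.42 FPKM with rFGF1ΔHBS, and its groups overlapped. The row shared by Hoxb6, Hoxb3 and Hoxb5 had 3.32 and 4.74 FPKM in HG, 5.0 and 5.38 FPKM with rFGF1WT, and 4.34 and 4.13 FPKM with rFGF1ΔHBS. Here the rFGF1WT values were above those of both other groups. Hoxb4, known for expanding blood stem cells, had 0.860 and 1.24 FPKM in HG, 0.765 and 0.888 FPKM with rFGF1WT, and 1.22 and 1.33 FPKM with rFGF1ΔHBS. The Hoxb4 values with the mutant were above those with the wild-type protein and overlapped HG.

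Hoxb2, a hindbrain gene, had 2.11 and 2.64 FPKM in HG, 2.78 and 3.66 FPKM with rFGF1WT, and 0.430 and 3.39 FPKM with rFGF1ΔHBS, the first of which was far below the rest. Hoxc6, a thoracic gene, was steadier, at 2.86 and 3.82 FPKM in HG, 3.01 and 2.21 FPKM with rFGF1WT, and 2.75 and 2.52 FPKM with rFGF1ΔHBS. Its rFGF1ΔHBS values were below those of HG, and its rFGF1WT values overlapped both groups.

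Among the kidney-inducing Hox11 paralogs Hoxc11 was above the limit, Hoxa11 was under it and Hoxd11 was not analysed here. Hoxc11 had 0.823 and 0.563 FPKM in HG, 1.98 and 0.224 FPKM with rFGF1WT, and 0.589 and 1.97 FPKM with rFGF1ΔHBS. Its libraries varied more within the groups than between them. Its mean of 1.02 FPKM was just inside the limit, next to Hoxb4 at 1.05 FPKM, and Hoxd4 at 0.986 FPKM and Hoxc4 at 0.887 FPKM were just outside.

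**Figure D2:**
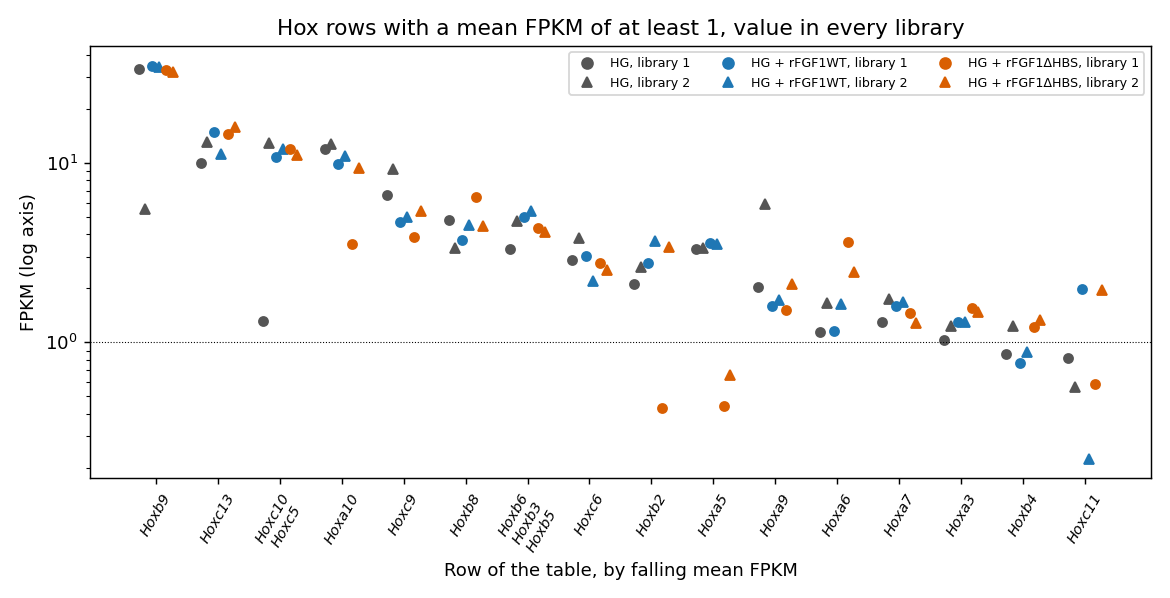
FPKM on a log axis (vertical) for the 16 expressed Hox rows (horizontal, by falling mean), with 1 point per library; circles are library 1 and triangles library 2 of each group, and the dotted line is 1 FPKM. Both rFGF1ΔHBS libraries of Hoxa5 (0.440 and 0.661 FPKM) lie below the other 4, and single low points are seen for Hoxb9, Hoxc10;Hoxc5 and Hoxb2.

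When the 16 rows were ordered by mean level, the ranges over all libraries overlapped in all 15 pairs of neighbours. Compared within each library, however, the row of Hoxb6, Hoxb3 and Hoxb5 was above Hoxc6 in every one. Libraries of the same group lay at least 3-fold apart in 4 of 16 Hox rows (25.0%), namely Hoxb9, Hoxc10;Hoxc5, Hoxb2 and Hoxc11, against 8.60% of all 10562 rows tested. The median of the largest fold between libraries of a group was 1.46 for Hox rows and 1.20 for all rows. These departures did not fall in a single library, since Hoxb9 was low in HG library 2, Hoxc10;Hoxc5 in HG library 1 and Hoxb2 in rFGF1ΔHBS library 1.

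The 14 Hox rows under the limit had means of 0.00315 to 0.986 FPKM and were not tested in the filtered fit. After Hoxd4 and Hoxc4 came Hoxd9 at a mean of 0.780 FPKM, Hoxa2 at 0.672, Hoxb7 at 0.610 and Hoxa4 at 0.608 FPKM. Hoxd8, Hoxc8 and Hoxd3 had means of 0.295, 0.280 and 0.239 FPKM. The remaining posterior genes were close to 0, with Hoxa13 at 0.0273, Hoxc12 at 0.0272, Hoxb13 at 0.0126 and Hoxa11 at 0.00315 FPKM, and the last 3 were listed at 0 in at least 1 library. In the fit with no limit on the level, the smallest adjusted p among these rows was 0.116, for Hoxd3 with rFGF1ΔHBS against HG.

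The comparison of the proteins with HG asked whether FGF1 changed the Hox pattern of cells in high glucose, and that between the proteins asked whether the mutant acted differently from the wild type. Hoxa5, a gene needed for lung and axial skeleton development, was the only Hox row past the test. It fell with rFGF1ΔHBS against HG, and the difference between the proteins passed the test in the fit of rows with a mean of at least 1 FPKM (limma, adjusted p = 0.0188) but not in the fit with no such filter (adjusted p = 0.0533). Hoxa5 lies on the minus strand of chromosome 6 (chr6:52201754-52204587, GRCm38, GENCODE M21), has 2 exons of 1877 bases in all, and shares no annotated exonic bases with another gene.

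Hoxa5 stood at 3.32 and 3.36 FPKM in the HG libraries, at 3.59 and 3.52 FPKM with rFGF1WT, and at 0.440 and 0.661 FPKM with rFGF1ΔHBS. The mutant libraries were both below the other 4 and the gap was larger than the spread within any group. Group means were 3.34 ± 0.0330 FPKM in HG, 3.55 ± 0.0482 FPKM with rFGF1WT and 0.551 ± 0.157 FPKM with rFGF1ΔHBS (SD, n = 2), so the HG mean was 6.07-fold and the rFGF1WT mean 6.45-fold that with the mutant. Hoxa5 passed the filter on level through HG and rFGF1WT, since its mean with rFGF1ΔHBS was under 1 FPKM.

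The mean FPKM of Hoxa5 with rFGF1WT was 1.06-fold that in HG. On the log2(FPKM + 1) scale, which understates changes of low genes, Hoxa5 fell by 1.49 with rFGF1ΔHBS against HG (standard error 0.0988, limma, Benjamini-Hochberg adjusted p = 0.0116). With rFGF1WT it was 0.07 above HG on that scale (limma, adjusted p = 0.714). Against rFGF1WT the difference with rFGF1ΔHBS was -1.56 (standard error 0.0988, limma, adjusted p = 0.0188). Both mutant libraries showed the direction. The first call was kept in 8 of 11 alternative fits (adjusted p from 0.0122 to 0.0661) and the second in 4 of 11 (0.0190 to 0.118). Without HG library 1 the adjusted p was 0.0593 against HG and 0.0725 between the proteins, without HG library 2 it was 0.0543 and 0.0711, and the call between the proteins was also lost without rFGF1WT library 1 (0.0741) or library 2 (0.0678). An exact permutation test of 2 libraries against 2 cannot give a two-sided p below 0.333.

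Among the 58 rows that differed between the proteins, Hoxa5 ranked 29 by p-value. Of these rows 27 were lower with the mutant, and the Hoxa5 decrease ranked 10 in size among them. Only 19 of the 27 were above 0 in every library, and among those 19 it ranked 2. These ranks hold within the filtered rows, which Hoxa5 entered through its level in HG and rFGF1WT.

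**Figure D3:**
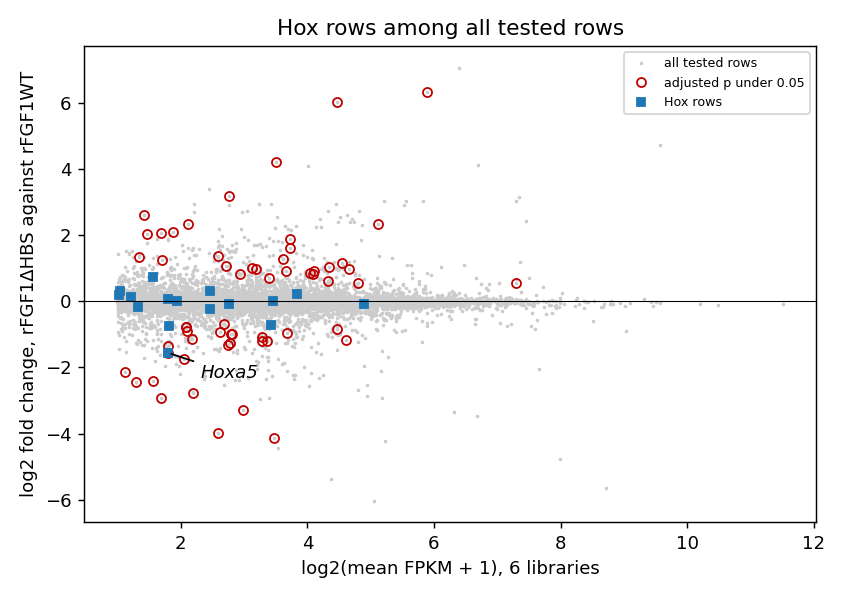
The log2 fold change between rFGF1ΔHBS and rFGF1WT on the FPKM + 1 scale (vertical) against log2(mean FPKM + 1) over the 6 libraries (horizontal) for the 10562 rows tested. Grey points are all rows, blue squares the 16 Hox rows, and red circles the 58 rows with an adjusted p under 0.05; Hoxa5 at -1.56 is the only Hox row among them.

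Hoxa6, the next gene in the cluster (chr6:52206288-52208722, minus strand, GRCm38), is 1700 bases from Hoxa5 and also has a role in axial patterning. Its values ran the other way, at 1.15 and 1.65 FPKM in HG, 1.15 and 1.64 FPKM with rFGF1WT, and 3.63 and 2.48 FPKM with rFGF1ΔHBS. Both mutant libraries were above the other 4, but Hoxa6 did not pass the test, with a log2 difference of 0.75 from HG (limma, adjusted p = 0.128) and of 0.75 from rFGF1WT (adjusted p = 0.836). The unadjusted p was 0.0213 in each comparison.

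The levels of these neighbours were also added. Their sum was 4.46 and 5.02 FPKM in HG, 4.74 and 5.16 FPKM with rFGF1WT, and 4.07 and 3.14 FPKM with rFGF1ΔHBS. Hoxa5 made up 74.3 and 67.1% of it in HG, 75.6 and 68.2% with rFGF1WT, and 10.8 and 21.1% with rFGF1ΔHBS. The share was therefore low in both mutant libraries. Both mutant sums were also below those of every HG and rFGF1WT library, though the sum differed less than the share. FPKM is scaled by exon length, and Hoxa5 has 1877 exonic bases and Hoxa6 874. The sum is therefore not a sum of fragments and does not show whether their joint signal was kept. How the authors' counting divided fragments between the neighbours was not tested.

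No other HoxA row was called in the fit of all 6 libraries. Hoxa10 also had both mutant libraries below the other 4, with a log2 difference of -0.95 from HG (limma, adjusted p = 0.255) and of -0.73 from rFGF1WT (adjusted p = 0.905). Hoxa7, on the far side of Hoxa6, had 1.31 and 1.75 FPKM in HG, 1.60 and 1.69 FPKM with rFGF1WT, and 1.46 and 1.28 FPKM with rFGF1ΔHBS, with a log2 difference between the proteins of -0.16 (limma, adjusted p = 0.905). Hoxa3, a gene of pharyngeal and neck structures, had 1.03 and 1.23 FPKM in HG, 1.3 and 1.31 FPKM with rFGF1WT, and 1.55 and 1.47 FPKM with rFGF1ΔHBS. Its groups did not overlap in any of the comparisons, but the log2 difference between mutant and HG was 0.24 (adjusted p = 0.212). The unexpressed Hoxa4 had means of 0.511, 0.619 and 0.695 FPKM in HG, rFGF1WT and rFGF1ΔHBS. Both mutant libraries were thus the lowest of the 6 at Hoxa5 and Hoxa10 and the highest at Hoxa6 and Hoxa3.

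**Figure D4:**
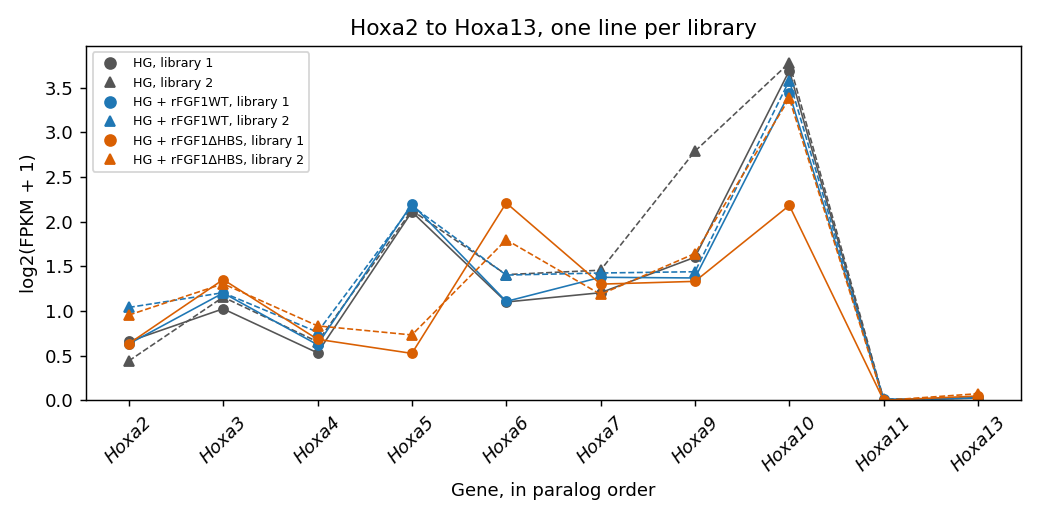
Level of the HoxA genes from Hoxa2 to Hoxa13 on a log2(FPKM + 1) scale (vertical) in paralog order (horizontal), with 1 line per library; solid lines and circles are library 1, dashed lines and triangles library 2. The rFGF1ΔHBS lines dip at Hoxa5 (0.440 and 0.661 FPKM) and lie above the others at Hoxa6 (3.63 and 2.48 FPKM).

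The RefSeq promoter table (GRCm38.p6) held 24 windows for 22 Hox genes. The 250 bases before the RefSeq start are shown for Hoxa5, which fell, for its neighbour Hoxa6 and for Hoxa7 beyond it, all 5′ to 3′ on the minus strand, with CG dinucleotides in capitals. They lie at chr6:52204588-52204837, chr6:52208673-52208922 and chr6:52218574-52218823.
Hoxa5: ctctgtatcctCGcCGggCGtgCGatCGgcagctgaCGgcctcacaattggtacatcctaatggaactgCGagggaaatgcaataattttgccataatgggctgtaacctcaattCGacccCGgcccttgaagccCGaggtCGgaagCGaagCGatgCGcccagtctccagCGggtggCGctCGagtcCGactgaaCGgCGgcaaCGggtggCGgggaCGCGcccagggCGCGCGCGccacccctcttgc
Hoxa6: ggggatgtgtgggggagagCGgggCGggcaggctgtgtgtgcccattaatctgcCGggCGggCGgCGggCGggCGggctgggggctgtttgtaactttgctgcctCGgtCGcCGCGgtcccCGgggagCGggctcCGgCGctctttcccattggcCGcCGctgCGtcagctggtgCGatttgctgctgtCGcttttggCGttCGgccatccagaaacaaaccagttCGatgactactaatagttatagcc
Hoxa7: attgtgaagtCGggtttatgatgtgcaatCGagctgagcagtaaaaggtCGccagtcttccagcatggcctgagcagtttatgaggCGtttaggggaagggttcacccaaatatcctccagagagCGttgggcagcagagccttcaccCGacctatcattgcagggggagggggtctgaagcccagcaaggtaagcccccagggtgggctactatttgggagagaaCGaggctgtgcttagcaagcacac
These windows held 28, 24 and 7 CG dinucleotides and 63.6, 65.2 and 54.8% G and C for Hoxa5, Hoxa6 and Hoxa7, against medians of 12.5 and 58.6% over the 24 Hox windows and 6 and 52.4% over all 32851 windows of 250 bases. The Hoxa5 and Hoxa6 windows were therefore both rich in CG dinucleotides and Hoxa7's was near the median of all promoters.

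Each window was searched on both strands, including 50 bases after the start, for TATAAA, the Hox and Pbx motif TGATTNAT, the Ets motif CCGGAAGT, and AGGTCA repeated after 5 bases, a retinoic acid receptor motif. None of these was in the 3 windows shown. TATAAA was in 4 of 24 Hox windows, Hoxa10 and Hoxb8 among them, and in 13.6% of all promoters. TGATTNAT was in 2 Hox windows and 3.22% of all promoters, and CCGGAAGT in 0 and 3.89%. The AGGTCA repeat was in 0 Hox windows and 0.00913% of all. These matches describe letters in the windows and do not mark binding sites.

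Over all 16 Hox rows, the number of calls was small in each comparison. With rFGF1WT against HG 0 Hox rows passed an adjusted p of 0.05 with limma, where 6.19% of all rows did, and 0 passed both that limit and 2-fold, where 1.01% did; 1 Hox row had an unadjusted p under 0.05, where 24.8% of all rows did. With rFGF1ΔHBS against HG 1 of 16 passed each limit, where 6.26 and 0.899% of all rows did, and 3 had an unadjusted p under 0.05, where 24.9% of all rows did. Between the proteins 1 of 16 passed each limit, where 0.549 and 0.35% of all rows did, and 2 had an unadjusted p under 0.05, where 4.87% of all rows did. The call was Hoxa5 in every case, and the comparisons with HG share the same HG libraries. Hoxa5 passed the filter on level through HG and rFGF1WT. In the fit with no such filter its call against HG was kept and its call between the proteins was lost. The shares above are therefore no measure of an excess of Hox calls.

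The median log2 difference of the Hox rows was 0.07 with rFGF1WT against HG, 0.11 with rFGF1ΔHBS against HG and 0.02 between the proteins, beside -0.04, -0.04 and 0.01 for all rows tested. Groups did not overlap in 8 of 16 Hox rows with rFGF1WT against HG, where 58.2% of all rows did not, in 7 with rFGF1ΔHBS against HG, where 57.3% did not, and in 8 between the proteins, where 34.5% did not. The median standard error was 0.209 for Hox rows and 0.105 for all rows, so a typical Hox row needed a larger difference to pass. Each row was tested with its own standard error, and those of Hoxa5 (0.0988) and Hoxa3 (0.0920) were below the median of all rows.

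**Figure D5:**
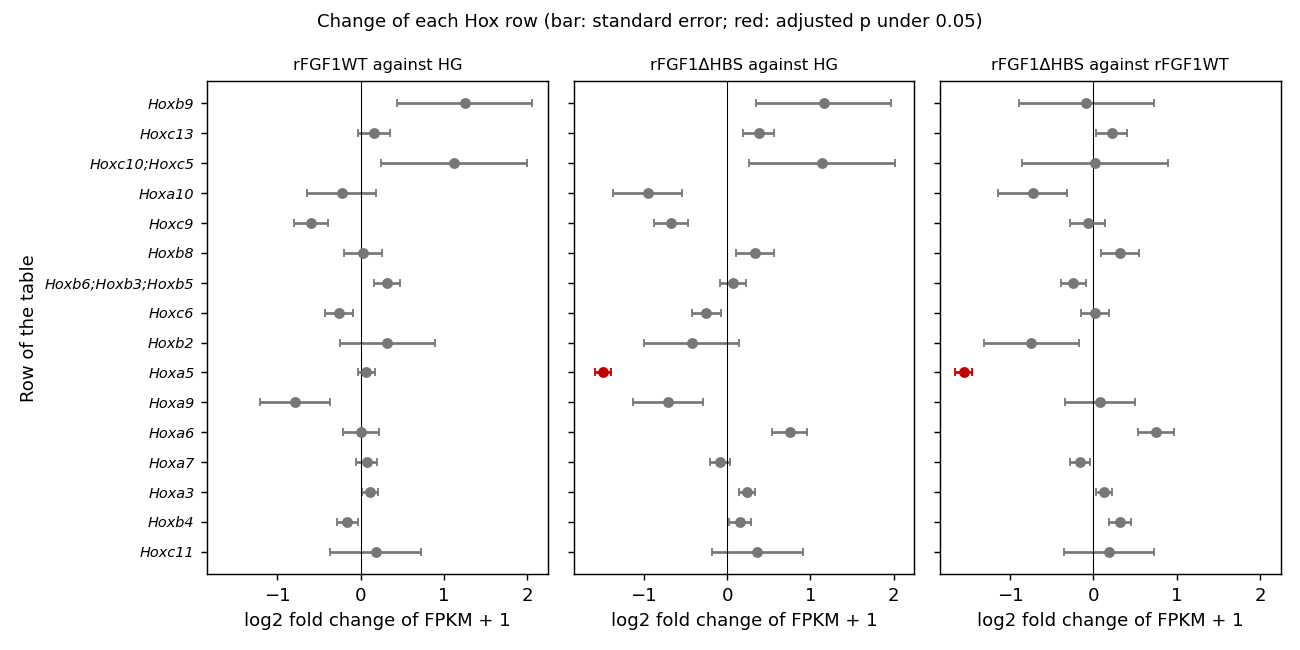
The log2 fold change of FPKM + 1 (horizontal) for the 16 expressed Hox rows (vertical) in the 3 comparisons, with bars showing the limma standard error; red marks an adjusted p under 0.05. Hoxa5 is the only red point, at -1.49 and -1.56, and Hoxb9 and Hoxc10;Hoxc5 have the widest bars.

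Other Hox rows differed from HG without passing the test. Hoxc9 was lower with both proteins, by a log2 difference of -0.60 with rFGF1WT (limma, adjusted p = 0.176) and -0.67 with rFGF1ΔHBS (adjusted p = 0.145). Hoxa9 differed from HG by -0.79 and -0.71 (adjusted p = 0.336 and 0.382), and without HG library 2 by -0.20 and -0.11. Hoxa10 differed from HG by -0.95 with rFGF1ΔHBS (adjusted p = 0.255), and this became -1.55 (adjusted p = 0.0367) without rFGF1ΔHBS library 2 and -0.35 without library 1.

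For Hoxb9 the log2 difference from HG was 1.25 with rFGF1WT and 1.16 with rFGF1ΔHBS (limma, adjusted p = 0.418 and 0.444). Without HG library 1 these were 2.44 and 2.36 (adjusted p = 0.00966 and 0.0132), and without HG library 2, the low one, 0.05 and -0.04. The row of Hoxc10 and Hoxc5 showed the reverse pattern, at 1.12 and 1.14 (adjusted p = 0.491 and 0.485), at 2.41 and 2.43 without HG library 2 (adjusted p = 0.0213 and 0.0216), and at -0.18 and -0.15 without HG library 1. For both rows the direction against HG thus rested on 1 HG library.

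Hoxb2 differed between the proteins by -0.74 (limma, adjusted p = 0.905), which became 0.06 without rFGF1ΔHBS library 1. Hoxb4 differed between the proteins by 0.32 (adjusted p = 0.905) and Hoxb8 by 0.31 (adjusted p = 0.905). Hoxc13 differed from HG by 0.38 with rFGF1ΔHBS (adjusted p = 0.308), Hoxc6 by -0.25 (adjusted p = 0.436) and Hoxc11 by 0.36 (adjusted p = 0.723). The row of Hoxb6, Hoxb3 and Hoxb5 differed from HG by 0.31 with rFGF1WT (adjusted p = 0.303) and by 0.07 with rFGF1ΔHBS (adjusted p = 0.815). None of these rows passed the test in a comparison.

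Annotated exons of 6 of the 16 expressed rows overlap those of another gene, and since use of strand in the counting is not given in the sources used here, such fragments cannot be told apart. On the opposite strand, Hoxaas3 covers 20.4% of the exonic bases of Hoxa7, Hoxb3os covers 27.3% of those of Hoxb2 and 52.9% of those of Hoxb3, and Hoxa3 and Hoxb5 have smaller overlaps. On the same strand, Hoxc10 and Hoxc5 share 166 exonic bases, and Hoxa3 and Hoxa9 overlap other genes. Of 20 other annotated rows within the clusters 4 passed the filter, and 0 were called in each comparison. The highest of them, the antisense RNA Hoxb5os, ran from 7.96 to 13.3 FPKM, and the noncoding Gm53 from 8.73 to 10.97 FPKM.

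Genes known to regulate the clusters or to act with Hox proteins are given by list, beside the 6.19 and 6.26% of all rows called against HG with rFGF1WT and rFGF1ΔHBS. Of 7 tested TALE cofactors, Pbx3, a partner that raises the DNA specificity of Hox proteins, fell by 0.61 on the log2 scale with rFGF1WT (limma, adjusted p = 0.0208) and by 0.50 with rFGF1ΔHBS (adjusted p = 0.0293), and the others did not pass, among them Pbx2, whose row of 4.63 FPKM is shared with Gpsm3 and Ager. Of 15 Polycomb genes, Phc2, a subunit of the repressive complex PRC1, rose by 0.73 with rFGF1WT (adjusted p = 0.0270) and by 0.79 with rFGF1ΔHBS (adjusted p = 0.0236), and the others, led by Suz12 at 27.3 FPKM, did not pass. Of 14 Trithorax genes, led by Men1 at 36.6 FPKM and Psip1 at 30.6 FPKM, 0 passed in any comparison. The same held for 5 tested genes of retinoic acid synthesis and reception, led by Rarg at 21.3 FPKM and Rxrb at 9.45 FPKM, and for 5 tested kidney partners of Hox11, led by Pax2 at 22.1 FPKM and Pax8 at 17.7 FPKM. Among the retinoid genes Rxra had the widest log2 differences from HG, -1.06 with rFGF1WT (adjusted p = 0.280) and -0.97 with rFGF1ΔHBS (adjusted p = 0.316). Its HG libraries stood at 6.03 and 17.9 FPKM, so HG library 2 alone was far above the rest. The values were 4.39 and 4.70 FPKM with rFGF1WT and 4.59 and 5.17 FPKM with rFGF1ΔHBS. No Cdx gene was tested. Between the proteins 0 genes of these lists were called. The lists' median log2 differences lay between -0.20 and 0.07, beside medians of -0.04, -0.04 and 0.01 over all rows.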

How the data were processed

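Poly(A) RNA of 6 libraries of a mouse podocyte line was sequenced as paired ends. The authors deposited FPKM values per gene; the paper's methods say that edgeR was used to summarise expression, and the submitters' processing notes name HISAT2 2.0, StringTie 1.3.0, Bowtie 0.12.2 and the build mm8, with no roles given. Positions were taken instead from GENCODE M21 (GRCm38) by Ensembl identifier; none came from the deposited table. Of the Hox rows 14 carried assembled identifiers and 16 Ensembl identifiers, and 2 rows joined several genes. Absolute depth is unknown: in rows with low values only 57.7 to 62.6% of values lay within 5% of a whole multiple, so whole reads were not recovered.

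FPKM values were transformed as log2(FPKM + 1), and 10562 rows with a mean FPKM of at least 1 were fitted with limma 3.58.1 in R 4.3.3 (lmFit, contrasts and eBayes with a trend). All 3 groups shared 1 estimate of spread with 3 residual degrees of freedom, and p-values were adjusted by Benjamini-Hochberg over all rows tested. The limits were an adjusted p of 0.05, and that with 2-fold in addition. Values and figures were made with Python 3.11.15, pandas 2.3.3 and matplotlib 3.10.9. The fit was tested on simulated data. Alternatives were a pseudocount of 0.1, no filter, median-ratio scaling, fits of the compared libraries alone, the replicate number as a block, each library left out, and other limits for expression. Every expressed Hox row was named, other Hox rows above 0 in any library were named with their mean save a result that is not reported here, and of the other lists the called genes and the 2 of highest mean were named. The Hox genes and the gene lists were chosen with earlier results of these data known. An assembled row named after a microRNA of the Hox clusters had no annotated transcript, and its value is not given.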

Additional observations from a re-analysis of the deposited data

Results flagged for a closer look

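Hoxa5 met the criterion of a difference between groups under the same contrast: the change against HG with rFGF1ΔHBS and that with rFGF1WT differed by -1.56 on the log2(FPKM + 1) scale (limma, adjusted p = 0.0188). This difference is the same as the one between the proteins, since both changes are measured against the same HG libraries. Groups of 2 libraries are too small for a test of outlying libraries.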

How the results depend on the processing

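Of 528 alternative values of the 16 Hox rows in the 3 comparisons, 489 kept their direction and their side of the limit, 10 lost a call (all Hoxa5), 5 gained one and 24 changed sign. The number of expressed Hox rows was 16 as reported, 23 with a limit of 0.5 FPKM, 11 with 2 FPKM and 12 with at least 1 FPKM in every library. Hox rows past the adjusted p alone, and past it and 2-fold, numbered 0 to 1 with rFGF1WT against HG, 0 to 2 with rFGF1ΔHBS against HG and 0 to 1 between the proteins, with libraries left out giving 0 to 1, 1 to 2 and 0 to 1. The count of 1 without HG library 1 was Hoxb9 and that without HG library 2 was Hoxc10;Hoxc5, not Hoxa5, in both comparisons with HG; the count of 2 was Hoxa5 and Hoxa10 without rFGF1ΔHBS library 2. Between the proteins the count was 0 with no filter (adjusted p of Hoxa5 0.0533), where more rows were tested, and 0 with only the 4 libraries compared (0.0719), where fewer entered. With the replicate number as a block it was 0 with rFGF1ΔHBS against HG (0.0661) and 0 between the proteins (0.118), and all called rows numbered 41, 39 and 6 in place of 654, 661 and 58. The correlations of same-numbered libraries' deviations were -0.0212, 0.0980 and -0.0467, so the numbers were not taken as pairs. Hoxa5 differences were -2.42 and -2.51 with a pseudocount of 0.1. With libraries left out, the Hox medians were -0.04 to 0.08, -0.14 to 0.15 and -0.07 to 0.08, and the median with rFGF1ΔHBS against HG was -0.14 without HG library 1.

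Signs changed when 1 library was left out. With rFGF1WT against HG, the ranges over libraries left out, with the omission that changed the sign, were -0.055 to 0.20 for Hoxa7 (without HG library 1), -0.15 to 0.15 for Hoxa6 (without HG library 1 and without rFGF1WT library 2), -0.025 to 0.35 for Hoxc13 (without HG library 1 and without rFGF1WT library 1), -0.18 to 2.41 for Hoxc10;Hoxc5 (without HG library 1), -0.18 to 0.23 for Hoxb8 (without HG library 2 and without rFGF1WT library 2) and -0.46 to 0.82 for Hoxc11 (without rFGF1WT library 1). With rFGF1ΔHBS against HG, the ranges over libraries left out, with the omission that changed the sign, were -0.13 to 0.28 for Hoxb6;Hoxb3;Hoxb5 (without HG library 1), -0.15 to 2.43 for Hoxc10;Hoxc5 (without HG library 1), -0.21 to 0.039 for Hoxa7 (without HG library 2), -0.038 to 2.36 for Hoxb9 (without HG library 2), -1.23 to 0.38 for Hoxb2 (without rFGF1ΔHBS library 1) and -0.087 to 0.81 for Hoxc11 (without rFGF1ΔHBS library 2). Between the proteins, the ranges over libraries left out, with the omission that changed the sign, were -0.044 to 0.086 for Hoxc10;Hoxc5 (without rFGF1WT library 1 and without rFGF1ΔHBS library 1), -0.46 to 0.83 for Hoxc11 (without rFGF1WT library 2 and without rFGF1ΔHBS library 2), -0.14 to 0.18 for Hoxc6 (without rFGF1WT library 2 and without rFGF1ΔHBS library 1), -1.55 to 0.064 for Hoxb2 (without rFGF1ΔHBS library 1), -0.27 to 0.13 for Hoxc9 (without rFGF1ΔHBS library 1) and -0.073 to 0.24 for Hoxa9 (without rFGF1ΔHBS library 2). None of these 24 values was past the limit. The lone library of a reduced group was assumed to vary like the others. The cause of the sign changes beyond the omitted library was not tested.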
